A study of Mus musculus with 4 samples.

Results

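The mitochondrially encoded genes of cultured adult mouse muscle stem cells (MuSCs) were taken as all rows of the joined expression table whose gene name starts with mt-. There were 31 such entries of 55267. Together they held transcripts of all 37 genes of the mitochondrial chromosome, of which 13 encode proteins, 2 ribosomal RNAs (rRNAs) and 22 transfer RNAs (tRNAs). RNA-seq was performed on 2 libraries of MuSCs given BMP6, a secreted bone morphogenetic protein, and on 2 control libraries given the vehicle. All cells came from muscles of 9-week-old female C57BL/6N mice that carry Tg(Pax7-EGFP)Tajb, a green fluorescent reporter under the promoter of the stem cell gene Pax7, and had been sorted for that reporter. They were grown before and after the sort at 3% oxygen and then kept for 6 h without serum, with 200 ng/mL of BMPR-1A-Fc, a soluble receptor that binds BMPs in the medium. BMP6 (100 ng/mL) or its vehicle (4 mM HCl with 0.1% BSA) was then added for 1 h. The batch label ties each BMP6 library to the control library of the same replicate number, so same-numbered libraries are paired.

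Levels are given as TPM, a share of all transcripts that is corrected for transcript length and scaled to the same total in each library, and pairs of values stand for replicate 1 and then replicate 2. The read numbers rebuilt from coverage were 108138579 to 111966564 per library, of which 2385152 to 2753530 fell on the mitochondrial entries. The cells expressed the muscle lineage markers Myog (4400 to 5472 TPM), Des (807 to 1120 TPM) and Myod1 (536 to 631 TPM), whereas Pax7 was at 8.29 to 11.7 TPM. The summed markers of endothelial, immune and red blood cells stayed at or below 2.67 TPM in every library, with Kdr and Hbb-bs at 0. The fibroblast collagens Col1a1, Col1a2 and Col3a1 were expressed, and the summed fibroblast markers ranged from 291 to 406 TPM in BMP6 and from 330 to 403 TPM in controls. Fewer cells of a type and less RNA per cell cannot be told apart in such bulk libraries.

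Mitochondrial DNA encodes core subunits of 4 of the respiratory complexes together with the rRNAs and tRNAs that translate them, while all other mitochondrial proteins come from nuclear genes. Both strands are copied into long RNAs that span many genes, and the tRNAs lying between the genes are cut out to release the individual rRNAs and mRNAs. Most of the mRNAs then receive a polyA tail. Skeletal muscle relies on respiration for sustained work, and muscle stem cells raise their mitochondrial content when they leave quiescence and differentiate.

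The genes lie so close together that several share an entry. In 5 entries the authors' assembly joined neighbours, so that 6 genes do not have an entry of their own name. The entry mt-Atp8 (bases 7766 to 9390, GRCm39) also holds mt-Atp6 and mt-Co3, and mt-Nd4l (9877 to 11544) also holds mt-Nd4. The entries mt-Nd1, mt-Nd2 and mt-Ts2 each hold a tRNA gene beside the named one (mt-Ti, mt-Tw and mt-Tl2). Both joined pairs of mRNA genes overlap in their annotated bases. The stretch shared by mt-Atp8 and mt-Atp6, which encode 2 subunits of the ATP synthase, is 43 bases long, and that of the complex I genes mt-Nd4l and mt-Nd4 is 7 bases long. They are shown in capitals with 12 bases on each side (plus strand, GRCm39), because reads from a shared stretch belong to both genes.
mt-Atp8/mt-Atp6, chrM:7915-7981: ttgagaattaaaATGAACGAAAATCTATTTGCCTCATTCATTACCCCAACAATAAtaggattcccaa
mt-Nd4l/mt-Nd4, chrM:10155-10185: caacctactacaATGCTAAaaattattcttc

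A nuclear copy of mitochondrial DNA can take up the same reads. Comparison of all transcripts in the files with the mitochondrial chromosome found 10 nuclear entries with at least 95% identity over at least 100 bases. Of these, 6 lie side by side on chromosome 1, on the minus strand between bases 24650616 and 24655278, and cover mitochondrial bases 6390 to 11042, from the last part of mt-Co1 to within mt-Nd4. Their identity to the mitochondrial sequence was 99.7% or more. Another 3 lie on chromosome 2 at 95.9% to 97.6% identity, and Gm4076 lies on chromosome 13. For mt-Co2, a core subunit of cytochrome oxidase, the 60 bases richest in differences from the chromosome 2 copy Gm13341 are shown, with the differing bases in capitals. Gm13341 differs at 6 of these bases, and the chromosome 1 copy Gm28661 at 0, over its whole length.
mt-Co2, chrM:7457-7516 (plus strand): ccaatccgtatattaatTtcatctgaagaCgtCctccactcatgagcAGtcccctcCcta
Gm28661, chr1:24654143-24654202 (minus strand): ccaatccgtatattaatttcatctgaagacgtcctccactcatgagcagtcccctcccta
Gm13341, chr2:22477483-22477542 (minus strand): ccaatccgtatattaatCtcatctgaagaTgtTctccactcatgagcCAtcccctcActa

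The copy of mt-Nd3, a complex I gene, is Gm28438. It differs from mt-Nd3 at 1 of 345 aligned bases, T3C, counted from the start of mt-Nd3 with the mitochondrial base named before the position. The start of both genes is shown with that base in capitals. The assembly is of the C57BL/6J strain, whereas these mice are C57BL/6N, and no base calls of the libraries were used here.
mt-Nd3, chrM:9459-9489 (plus strand): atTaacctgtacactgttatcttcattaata
Gm28438, chr1:24652170-24652200 (minus strand): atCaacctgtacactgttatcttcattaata

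The mitochondrial entries took 3.82% and 3.80% of all TPM in BMP6 replicates 1 and 2 and 4.00% and 4.29% in control replicates 1 and 2. Of this mitochondrial TPM, rRNAs made up 6.27% to 6.91% and tRNAs 2.69% to 3.53%, and protein-coding entries held the rest. By rebuilt reads, which are not corrected for length, protein-coding entries made up 90.4% to 91.4%, rRNAs 8.37% to 9.40% and tRNAs 0.177% to 0.232%. Of the 31 entries, 28 reached a mean TPM of 1 over the 4 libraries and entered the test. The other three, mt-Nd6, mt-Tq and mt-Ts1, lie on the minus strand wholly inside a longer plus strand transcript. The libraries did not keep strand, so reads of such pairs cannot be told apart.

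**Figure D1:**
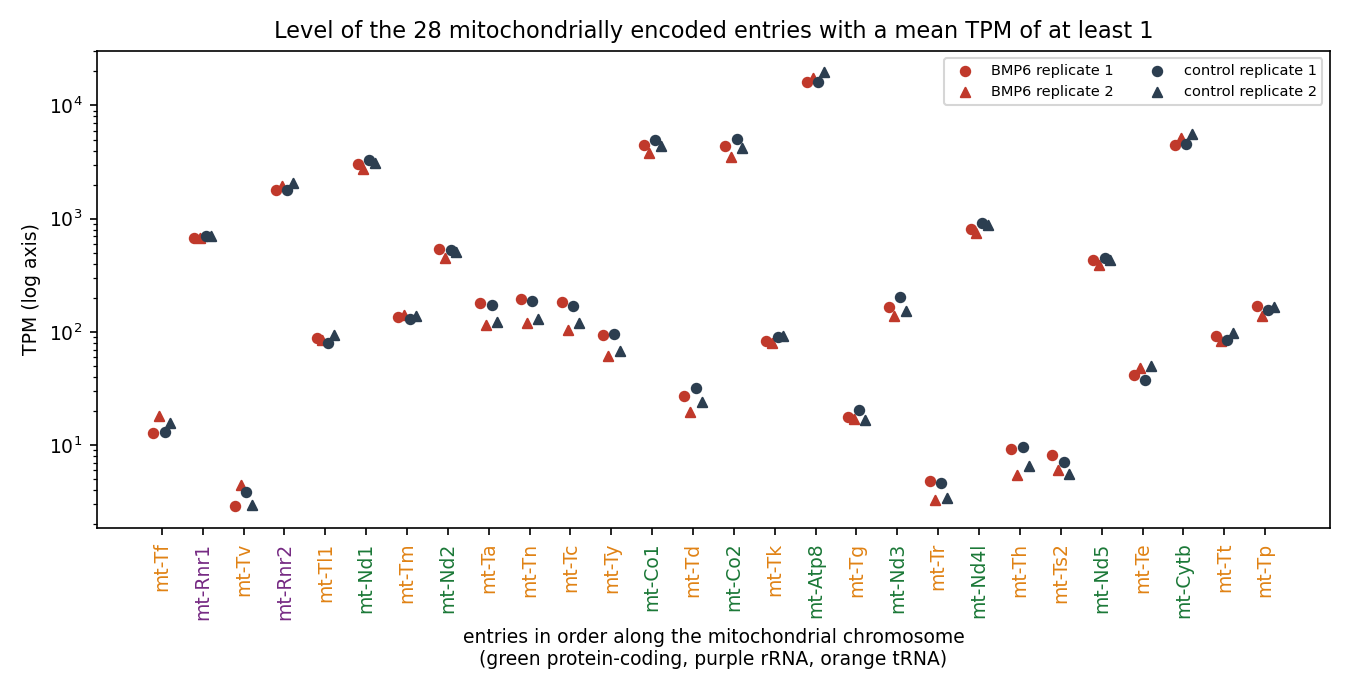
TPM (log axis) of the 28 mitochondrially encoded entries whose mean TPM reached 1, in their order along the chromosome, with 1 point per library (red BMP6, dark control, circles replicate 1, triangles replicate 2). The mt-Atp8 entry stands highest at 15993 to 19572 TPM, and the tRNA mt-Tv lowest at 2.89 to 4.42 TPM.

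Because genes share entries, levels were also taken over annotated bases. The level of each plus strand gene is the summed TPM of all transcripts in the files that cover its annotated bases. This does not separate mt-Nd4l from mt-Nd4, because a transcript that covers both holds nearly all of their TPM. mt-Atp8 and mt-Atp6 also share most of theirs. Of the 12 protein-coding genes on the plus strand, mt-Atp6 was the most abundant on this scale. Its level was 13554 and 15034 in BMP6 and 13251 and 16617 in controls, and mt-Atp8 overlapped this range at 11343 to 14739. The transcript of mt-Atp8 runs over nearly all of mt-Atp6, so its TPM counts in both levels. The place of mt-Atp6 above mt-Atp8 therefore follows from how the levels are summed. The next genes, mt-Cytb (the complex III gene, 4503 to 5633), mt-Co3 (4449 to 5338), mt-Co1 (3802 to 4980) and mt-Co2 (3500 to 5073), overlapped each other from neighbour to neighbour. By mean level the 3 complex IV genes stood next to each other. In BMP6 replicate 1, however, mt-Cytb (4503) lay among them, between mt-Co1 (4517) and mt-Co2 (4378). The complex I genes were spread widely. mt-Nd1 stood at 2723 to 3274, mt-Nd4 at 752 to 915, mt-Nd2 at 451 to 543, mt-Nd5 at 393 to 447 and mt-Nd3 at 138 to 202. Of these 5 neighbours in order, each lay apart from the next in all 4 libraries. The mean level of mt-Atp6 was 88.7 times that of mt-Nd3, and both genes lie on the plus strand.

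mt-Rnr2, the large rRNA, lay between mt-Nd1 and mt-Nd4, at 1786 and 1953 TPM in BMP6 and 1800 and 2067 TPM in controls. mt-Rnr1, the small rRNA, was at 673 TPM in both BMP6 libraries and at 707 and 706 TPM in controls. The mt-Rnr2 to mt-Rnr1 ratio of TPM was 2.54 to 2.93. The input was polyA RNA, so these values are no measure of total rRNA.

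The TPM of the tRNA transcripts divided by whether a longer transcript covers them. In the files, 5 tRNA transcripts lie wholly inside a longer one (mt-Ti, mt-Tq, mt-Tw, mt-Ts1 and mt-Tl2), and none of them exceeded 0.654 TPM in any library. These values do not measure the RNA at these genes, because the covering transcript can take the reads. Over the annotated bases of mt-Ti, for example, the summed TPM of all plus strand transcripts was 2723 to 3274. The other 17 ranged from 2.89 TPM for mt-Tv, which lies between the rRNAs, to 197 TPM for mt-Tn. Of these 17, the 6 on the minus strand (mt-Ta, mt-Tn, mt-Tc, mt-Ty, mt-Te and mt-Tp) were at 37.8 to 197 TPM. Strand here is that of the annotated gene, because the libraries did not keep the strand of the RNA. mt-Tp, the proline tRNA, had 169.8 and 139.6 TPM in BMP6 and 158 and 166 TPM in controls. On the plus strand, mt-Tm, the methionine tRNA in front of mt-Nd2, was the most abundant at 131 to 142 TPM, and mt-Tr, the arginine tRNA, was at 3.25 to 4.81 TPM. The mt-Tm values come from 576 to 591 rebuilt reads and those of mt-Tr from 13.3 to 20.5. The tRNA genes are shorter than the 100-base reads, so their TPM describes fragments that overlap the gene and not mature tRNA.

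Between mt-Nd2 and mt-Co1 lie 4 of the minus strand tRNAs, for alanine, asparagine, cysteine and tyrosine. In mouse, the replication origin of the light strand lies between mt-Tn and mt-Tc. These tRNAs are shown with the anticodon in capitals, followed by the 32 bases between mt-Tn and mt-Tc, because they were among the entries that differed most between the replicate numbers. All are given on the minus strand, GRCm39.
mt-Ta, chrM:5018-5086: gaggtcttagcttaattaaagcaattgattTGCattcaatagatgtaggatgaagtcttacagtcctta
mt-Tn, chrM:5089-5159: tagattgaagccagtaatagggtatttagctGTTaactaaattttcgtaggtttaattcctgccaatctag
mt-Tc, chrM:5192-5257: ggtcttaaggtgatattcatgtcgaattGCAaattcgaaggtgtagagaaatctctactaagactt
mt-Ty, chrM:5260-5326: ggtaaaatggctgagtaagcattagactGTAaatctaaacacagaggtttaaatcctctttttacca
between mt-Tn and mt-Tc, chrM:5160-5191: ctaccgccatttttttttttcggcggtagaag

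BMP6 was compared with control to ask whether 1 h of stimulation moves the mitochondrial transcripts. The summed mitochondrial share of TPM was lower with BMP6 in both pairs, with a change of -4.49% in pair 1 (log2 ratio -0.07) and -11.3% in pair 2 (log2 ratio -0.17), and both BMP6 libraries lay below both controls. Its mean was 3.81% ± 0.0134 (SD, n = 2) in BMP6 and 4.14% ± 0.203 (SD, n = 2) in controls. Protein-coding entries took 3.44% and 3.43% of TPM in BMP6 against 3.62% and 3.89% in controls, so their groups also lay apart. The tRNA share was 0.135% and 0.105% in BMP6 against 0.130% and 0.115% in controls, so its groups overlapped. With 2 libraries a group, no exact permutation test can give a p below 0.333, and these shares were not tested.

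No mitochondrial entry passed the test entry by entry without the replicate block, and 3 passed with it. With limma on log2(TPM + 1), 0 of the 28 tested members had an adjusted p under 0.1, against 0.272% of all entries that could be called in either direction and 0.00939% in the lower direction (0.225% with the fold threshold added), and each member's adjusted p was 1.00. With limma's voom on rebuilt reads the number was also 0. At an unadjusted p under 0.05 there was 1 member, mt-Nd4l, which was lower, against 3.12% of entries in either direction and 0.742% in the lower one. With the replicate number as a block, 3 members passed the adjusted p, mt-Co2, mt-Co1 and mt-Nd4l, all lower with BMP6, against 1.64% of entries in either direction and 0.319% in the lower one. At an unadjusted p under 0.05 with the block there were 9 members, all lower, against 4.39% of entries in that direction. With so few libraries, p-values with the block rest largely on variance that limma pools over all entries. The fold change of mt-Co2, the largest of the protein-coding entries, was 0.845, far from the 0.5 that the study asks of a regulated gene.

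All 9 tested protein-coding entries had a negative log2 fold change, but 4 of these directions depended on the processing or on 1 library. Under quantile normalization mt-Co1 (0.0018) and mt-Cytb (0.063) turned positive and the mt-Atp8 entry was at 0. That setting gives entries of equal rank the same value in every library. For the most abundant entries it therefore shows rank and not level, and it cannot give a direction for mt-Atp8. Without BMP6 replicate 2 mt-Nd2 turned positive (0.069), without control replicate 2 the mt-Atp8 entry (0.046) and mt-Cytb (0.067), and without BMP6 replicate 1 mt-Cytb (0.018). Leaving out 1 library breaks a pair, so the difference between replicate numbers enters these values. Within both complete pairs, mt-Cytb and the mt-Atp8 entry were lower with BMP6. The median of the 9 tested protein-coding entries was -0.15, against 0.02 for all 13128 tested entries. For the 1808 nuclear entries that are no copies and whose mean TPM reached 100, it was 0.01. In 8 of these 9, both pairs were lower with BMP6, against 24.7% of entries. The mRNAs are cut from shared precursors, so the entries are not independent of each other.

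**Figure D2:**
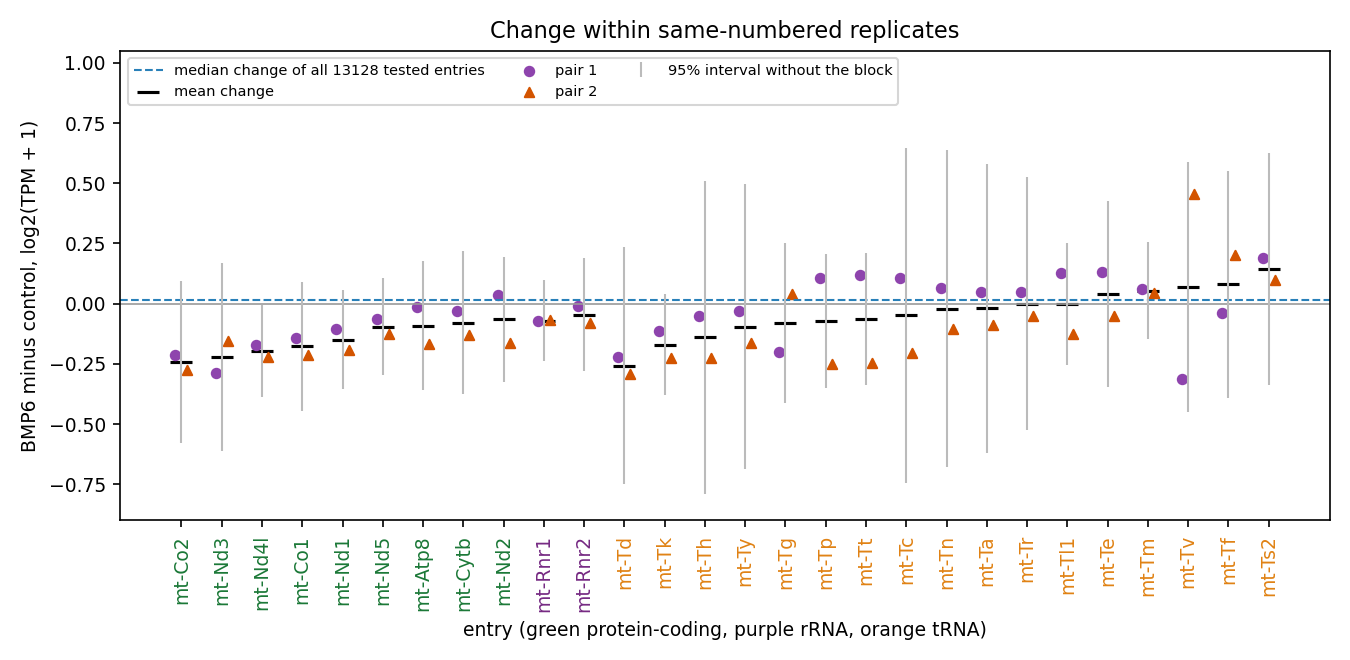
Change from control to BMP6 on the log2(TPM + 1) scale for the 28 tested entries, by class and size, in pair 1 (circles) and pair 2 (triangles), with the mean (bar), its 95% interval without the block (grey) and the median of all tested entries (dashed, 0.02). The means of all 9 protein-coding entries lie below 0, between -0.24 and -0.06 (mt-Co1, mt-Cytb, mt-Atp8 and mt-Nd2 do not under every alternative), while tRNAs lie on both sides.

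The smallest p-values with the block belonged to cytochrome oxidase, complex IV. mt-Co2 stood at 4378 and 3500 TPM in BMP6 and at 5073 and 4232 TPM in controls. The groups overlapped, but within pairs it was lower with BMP6 by 0.21 and 0.27 on the log2 scale. The log2 fold change of mt-Co2 was -0.24 (SE 0.14), with a limma adjusted p of 1.00 without the block and 0.00864 with it. This value ranged from -0.40 without BMP6 replicate 1 to -0.082 without BMP6 replicate 2, and was -0.37 without control replicate 2 and -0.11 without control replicate 1. mt-Co1, the catalytic subunit, had 4517 and 3802 TPM in BMP6 and 4980 and 4410 TPM in controls. For mt-Co1 the log2 fold change was -0.18 (SE 0.11), with a limma adjusted p of 1.00 without the block and 0.0455 with it. It was -0.30 without BMP6 replicate 1, -0.053 without BMP6 replicate 2 and -0.090 without control replicate 1. The call of mt-Co1 with the block was lost under quantile normalization (limma adjusted p = 0.991) and when TPM was scaled to entries that are neither members nor copies (0.101). mt-Co3, which has no entry of its own, had levels of 4747 and 4449 in BMP6 and of 5328 and 5338 in controls over its annotated bases. Both BMP6 values of mt-Co3 lay below both controls, with log2 differences of -0.17 and -0.26 within pairs. These levels include the transcript of mt-Atp6, which runs over mt-Co3 and was at 2090 to 2431 TPM, so they are not those of mt-Co3 alone.

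The complex I entries that were tested were also lower with BMP6 in both pairs, except mt-Nd2. The mt-Nd4l entry had 812 and 752 TPM in BMP6 and 915 and 876 TPM in controls, so the groups lay apart. For mt-Nd4l the log2 fold change was -0.20 (SE 0.08), with a limma adjusted p of 1.00 without the block and 0.0935 with it, or 0.146 when TPM was scaled to entries that are neither members nor copies. mt-Nd1 was at 3044 and 2723 TPM in BMP6 and 3274 and 3113 TPM in controls, a log2 fold change of -0.15 (95% interval -0.35 to 0.05) with an adjusted p of 0.132 in limma with the block. The groups of mt-Nd1 also lay apart, as did those of mt-Nd5, at 428 and 393 TPM in BMP6 and 447 and 429 TPM in controls (log2 fold change -0.09). Groups with BMP6 below control were found in 3 of the 9 tested protein-coding entries, against 10.8% of entries. mt-Nd3, the least abundant of the tested complex I entries, was at 166 and 138 TPM in BMP6 and 202 and 153 TPM in controls, with a log2 fold change of -0.22 (95% interval -0.61 to 0.17). mt-Nd2 stood at 543 and 451 TPM in BMP6 and 529 and 505 TPM in controls, higher in pair 1 by 0.04 and lower in pair 2 by 0.16 on the log2 scale. mt-Nd6 was at 0.226 and 0.178 TPM in BMP6 and 0.151 and 0.0530 TPM in controls, from 1.69 to 7.36 rebuilt reads, and was not tested.

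Mean differences were smaller for mt-Atp8 and mt-Cytb than for mt-Co1 and mt-Co2, though not smaller than for mt-Nd2 (log2 fold change -0.06). The entry mt-Atp8 had 15993 and 17409 TPM in BMP6 and 16159 and 19572 TPM in controls, a log2 fold change of -0.09 (95% interval -0.36 to 0.18). Over the annotated bases, the change of mt-Atp6 with BMP6 was 2.29% in pair 1 and -9.52% in pair 2. mt-Cytb, the cytochrome b of complex III, was at 4503 and 5154 TPM in BMP6 and at 4600 and 5633 TPM in controls, with log2 differences of -0.03 and -0.13 within pairs. For these genes the difference in pair 1 was small beside that between the replicates of one group. Counted over annotated bases, 9 of the 12 protein-coding genes were lower in both pairs, beside 24.7% of entries. All 12 were lower in pair 2, a share that was not taken over all entries. The levels of mt-Nd4l and mt-Nd4 come almost wholly from a shared transcript, and those of mt-Atp8 and mt-Atp6 in large part. The mt-Co3 level also holds the transcript of mt-Atp6, which runs over it. These counts therefore hold the same signal more than once.

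The rRNAs and tRNAs held smaller differences or differed in direction. mt-Rnr1 had almost equal values within each group, and BMP6 lay below control by 0.07 on the log2 scale in both pairs (95% interval of the fold change -0.24 to 0.10). mt-Rnr2 had a log2 fold change of -0.05 (95% interval -0.28 to 0.19). Of the 17 tested tRNA entries, 10 had a negative and 7 a positive log2 fold change, with a median of -0.02 and a range from -0.26 to 0.14. In 4 of the 17 both pairs were lower with BMP6, which is 23.5% beside 24.7% of entries. The lowest was mt-Td, the aspartate tRNA between mt-Co1 and mt-Co2, at 27.1 and 19.5 TPM in BMP6 and 31.8 and 24.1 TPM in controls, from 82.0 to 142 rebuilt reads. Its log2 fold change was -0.26 (95% interval -0.75 to 0.23). mt-Tk, the lysine tRNA on the other side of mt-Co2, was the 1 tested tRNA of 17 with both BMP6 libraries below both controls, against 10.8% of entries. It was at 82.6 and 79.2 TPM in BMP6 and 89.4 and 92.8 TPM in controls (log2 fold change -0.17). The highest, mt-Ts2, was at 8.28 and 6.00 TPM in BMP6 and 7.13 and 5.54 TPM in controls (log2 fold change 0.14). None of the 17 had an adjusted p under 0.1 in limma with the block, where the smallest was 0.249.

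Most mitochondrial entries differed more between the replicate numbers than between BMP6 and control. In 22 of the 28 tested members, the mean difference between replicates 2 and 1 was larger than the mean difference between BMP6 and control, and in 22 of 28 the replicate difference had the same direction in both groups. Neither share was taken over all entries, so they are not shown to be particular to the mitochondrial ones. Across all tested entries, the deviations of same-numbered libraries correlated at 0.563. The tRNAs around the light strand origin were among those that differed most, together with mt-Th, the histidine tRNA (9.18 and 5.49 TPM in BMP6, 9.56 and 6.59 TPM in controls). mt-Tc had 184 and 105 TPM in BMP6 and 171 and 121 TPM in controls. mt-Tn had 197 and 120.4 TPM in BMP6 and 188 and 129.5 TPM in controls. Both were thus higher in replicate 1 in each group, mt-Tc by 1.75 and 1.41 times and mt-Tn by 1.63 and 1.45 times. mt-Ta (179.9 and 116 TPM in BMP6, 174 and 123 TPM in controls) and mt-Ty (93.9 and 61.1 TPM, 95.9 and 68.4 TPM) followed the same order. Their log2 fold changes for BMP6 were small, at -0.02 for mt-Ta, -0.02 for mt-Tn, -0.05 for mt-Tc and -0.10 for mt-Ty.

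The protein-coding entries also split by replicate number. In 7 of 9, a share that was not taken over all entries, the values were lower in replicate 2 in both groups. Among them were mt-Co2, by 0.32 and 0.26, and mt-Co1, by 0.25 and 0.18 on the log2 scale. The other two, the mt-Atp8 entry and mt-Cytb, were higher in replicate 2 in both groups, by 0.12 and 0.28 and by 0.19 and 0.29. The mt-Atp8 entry therefore took 41.9% of the mitochondrial TPM in BMP6 replicate 1 and 45.8% in BMP6 replicate 2, and 40.4% and 45.7% in the controls, while mt-Co2 took 11.5% and 9.21% in BMP6 and 12.7% and 9.88% in controls. Within the mitochondrial TPM, mt-Co2 was lower with BMP6 in both pairs, by 0.15 and 0.10 on the log2 scale, and mt-Co1 by 0.07 and 0.04. What separates the replicate numbers is not given beyond the batch label, and its part in these levels was not tested.

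**Figure D3:**
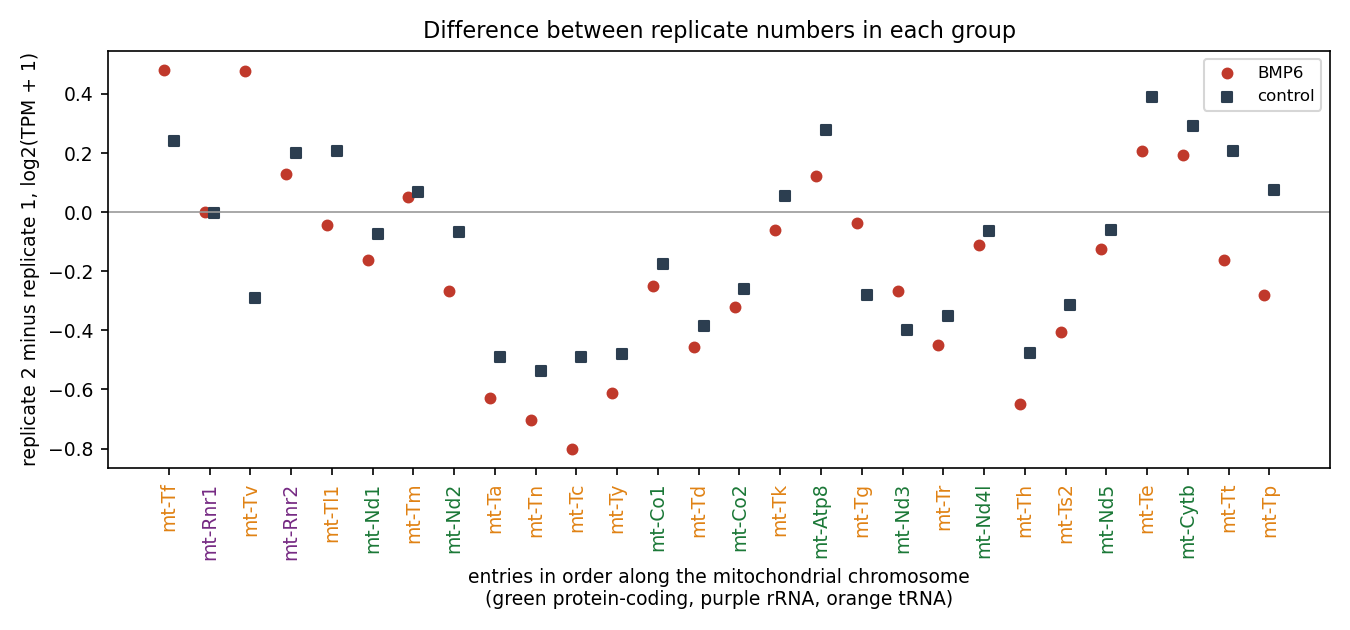
Difference of replicate 2 from replicate 1 on the log2(TPM + 1) scale for the 28 tested entries along the chromosome, in BMP6 (red circles) and control (dark squares). The 4 tRNAs from mt-Ta to mt-Ty lie between -0.80 (mt-Tc) and -0.48 (mt-Ty), mt-Th lies as low, and the mt-Atp8 entry and mt-Cytb lie above 0 in both groups.

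The nuclear copies on chromosome 1 had levels close to those of the mitochondrial genes. Gm28661, identical to mt-Co2 over 681 bases, was at 4397 and 3515 TPM in BMP6 and 5095 and 4250 TPM in controls, which is 1.00 times the mt-Co2 level in every library. Gm28438, which differs from mt-Nd3 by the single base shown above, was at 1.07 to 1.08 times mt-Nd3. Gm10925, identical to mt-Atp6, was at 14235 to 18008 TPM, and Gm28437, identical to mt-Co3, was at 4315 to 5249 TPM. Gm28439 had 0.739 to 0.766 times the level over the same bases of mt-Nd4l and mt-Nd4, and Gm29216 1.26 to 1.30 times that of mt-Co1. The mt-Co1 value is a mean over the whole transcript, whereas Gm29216 covers its end. The copies followed the same pattern as their mitochondrial genes, so that Gm28661 was lower with BMP6 by 0.21 and 0.27 on the log2 scale within pairs. Together the 10 copies took 2.98% to 3.41% of all TPM.

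Copies that differ more from the mitochondrial sequence were far lower. The mean level of mt-Co2 was 54.4 times that of Gm13341 (79.0 TPM), whose differing bases are shown above. The mean level over the same bases was 494 times that of Gm13340 for mt-Co1 and 89.8 times that of Gm13339 for mt-Nd2. Gm4076, at 95.2% identity to mt-Nd5, did not exceed 0.0949 TPM. The authors turned off the StringTie step that corrects for multi-mapped reads, so a read matching mt-Co2 and Gm28661 equally well could count for both. Reads of a member and of an identical copy cannot be told apart in these values, and the members' levels and changes include them.

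**Figure D4:**
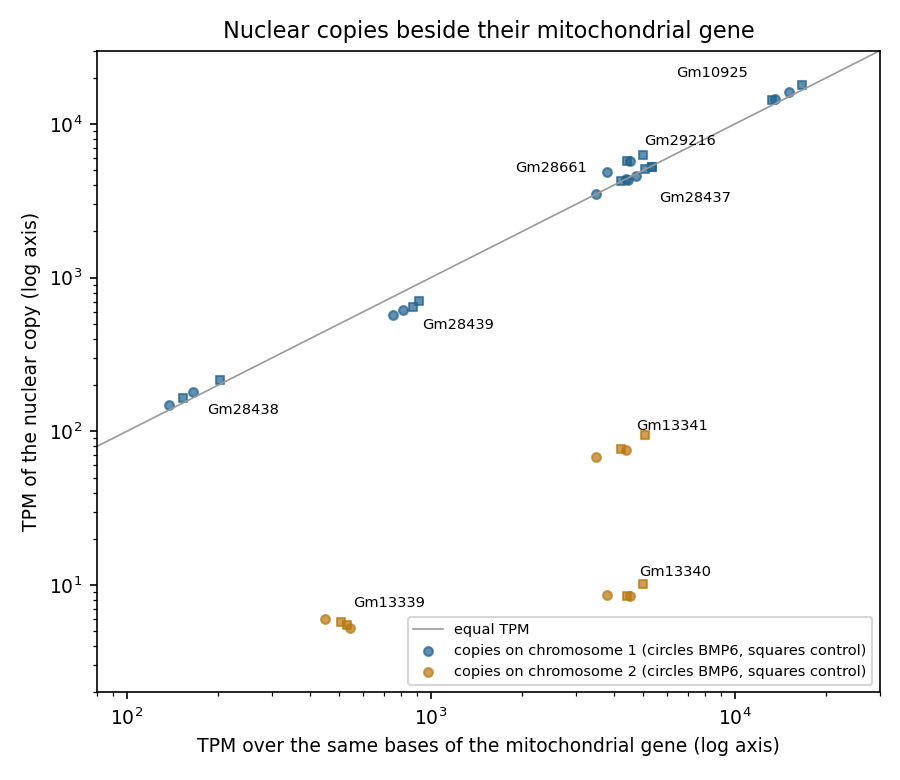
TPM of the 9 nuclear copies whose mean TPM reached 1 against the TPM over the same bases of the mitochondrial gene (both axes log), 1 point per library (circles BMP6, squares control). The 6 copies on chromosome 1 (blue) lie close to the line of equal TPM, and the 3 on chromosome 2 (brown) lie 54.4 to 494 times below it on average.

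Respiratory complexes combine mitochondrial and nuclear subunits, so the nuclear partners were examined beside the members. Of 83 listed nuclear subunits of complexes I to V, 77 were matched to an entry and tested. None had an adjusted p under 0.1 in limma without or with the block, and at an unadjusted p under 0.05 there were 0 without it. With the block there were 14 at that level, 13 of them higher and 1 lower with BMP6. Over all entries the share was 12.7% in either direction and 4.39% in the lower one. Both BMP6 libraries lay above both controls in 28 of the 77, against 17.4% of entries. They lay below both in 9, against 10.8%. Their median log2 fold change was 0.04, and 52 had a positive and 25 a negative value. In complex I, the median of the 33 nuclear subunits was 0.04, with Ndufa7 at 0.04 and Ndufb1 at 0.18, against -0.15 for the 5 mitochondrial entries. In complex IV, the median of the 15 nuclear subunits was 0.01, with Cox4i1 at -0.06, Cox6a1 at -0.07 and Cox8b, an isoform of heart and skeletal muscle, at 0.25. The 4 subunits of complex II, which has no mitochondrial gene, ranged from 0.01 to 0.14.

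The ratio of summed mitochondrial to summed nuclear subunit TPM was lower with BMP6 in both pairs for all 4 mixed complexes. For complex I it was 0.473 and 0.412 in BMP6 against 0.519 and 0.483 in controls. For complex IV, counting the mt-Co1 and mt-Co2 entries, it was 1.01 and 0.811 in BMP6 against 1.15 and 0.944 in controls. For complex III it was 0.793 and 0.871 in BMP6 against 0.833 and 0.997 in controls. For complex V, whose mitochondrial entry also holds mt-Co3, it was 1.55 and 1.63 against 1.56 and 1.86. Except in complex I, the ranges of the groups overlapped, and these ratios were not tested.

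**Figure D5:**
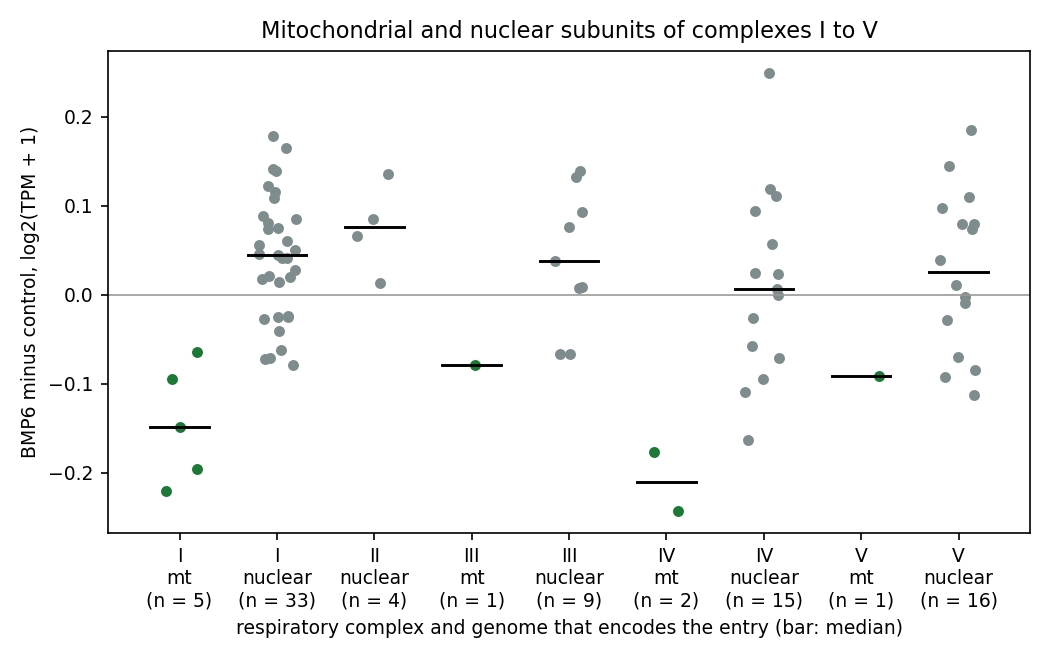
Change from control to BMP6 on the log2(TPM + 1) scale for the tested mitochondrial entries (green) and nuclear subunits (grey) of each respiratory complex, 1 point per entry, with the median as a bar. The medians of the mitochondrial entries lie below 0 in each of the 4 complexes that have any, and those of the nuclear subunits between 0.01 and 0.08. The complex V mitochondrial entry also holds mt-Co3.

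The nuclear genes that copy and process mitochondrial RNA gave no call without the block. Of 18 tested genes for mitochondrial transcription and replication, 13 had a negative log2 fold change, with a median of -0.05. Tefm, an elongation factor of the mitochondrial polymerase, was at 53.7 and 61.0 TPM in BMP6 and 55.6 and 59.7 TPM in controls, so the groups overlapped. Ssbp1, which binds single-stranded mitochondrial DNA, had a log2 fold change of -0.07. Mterf4, a regulator of mitochondrial ribosome assembly, had the largest difference of this list (-0.26, 95% interval -0.54 to 0.01), followed by the rRNA methyltransferase Tfb1m (-0.24, 95% interval -0.53 to 0.05). Of 27 genes for mitochondrial RNA processing and stability, 12 were negative and 15 positive, with a median of 0.01. The most abundant were Rexo2 (log2 fold change 0.01), which degrades short RNAs, and Hsd17b10 (0.00), a subunit of the mitochondrial RNase P that cuts the tRNAs free. Ptcd3, a ribosome-associated protein, had 0.27 (95% interval -0.19 to 0.73). Mrm1, which modifies the large mitochondrial rRNA, was at 3.77 and 2.59 TPM in BMP6 and 5.45 and 4.41 TPM in controls (log2 fold change -0.51, limma adjusted p = 1.00 without the block and 0.102 with it). The 78 subunits of the mitochondrial ribosome had a median of 0.01, with Mrpl17 at -0.45 and Dap3 at -0.26.

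Among regulators of mitochondrial biogenesis, 11 of 16 were tested. Myc, a transcription factor of growth, was at 45.6 and 41.9 TPM in BMP6 and 59.0 and 60.7 TPM in controls, so the groups lay apart. For Myc the log2 fold change was -0.45 (SE 0.10), with a limma adjusted p of 0.637 without the block and 0.0303 with it. Gabpb1 (0.29) and Nrf1 (0.21), 2 activators of nuclear genes for respiration, were not called, and Ppargc1a, the coactivator known for raising mitochondrial content in muscle, was at 0.386 to 0.673 TPM. Of 15 genes of the mitochondrial stress response, 13 had a negative log2 fold change and none was called, with a median of -0.08. Asns (812 to 1046 TPM) and Fgf21 (471 to 668 TPM) were its most abundant members, and Atf4, a transcription factor that activates both, was at 123 and 84.3 TPM in BMP6 and 132 and 121 TPM in controls.

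Some other lists were lower with BMP6 on balance too, unlike the nuclear subunits above. Over all 13128 tested entries, 5862 had a negative log2 fold change. Of the 10 muscle markers, 7 had a negative log2 fold change, and Des, the muscle intermediate filament, had -0.24 (limma adjusted p = 1.00 without the block and 0.0312 with it). The summed muscle markers were at 6724 to 7001 TPM in BMP6 and 6911 to 7684 TPM in controls. Replication-dependent histones, which lack polyA tails, had a median of -0.09 over 43 tested genes, and H1f2 had -0.45 (limma adjusted p = 1.00 without the block and 0.0320 with it). The spliceosomal RNA gene Rnu2-10 had -0.58 (limma adjusted p = 1.00 without the block and 0.0967 with it), from 3.15 to 6.12 TPM. Of the 19 tested small non-coding RNA genes that include it, 15 were lower and 4 higher. Their median was -0.40 in pair 1 but 0.01 in pair 2, and their summed TPM was higher with BMP6 in pair 2. The part of these features in the mitochondrial values was not tested.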

How the data were processed

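According to the labels and methods, paired 100-base reads from unstranded Smart-seq2 libraries of polyA RNA were aligned by the authors to GRCm39 with STAR 2.7.11a, and StringTie 2.2.1 assembled, merged and quantified transcripts. The authors deposited TPM and FPKM per entry. The signal in the deposited files of each library is coverage, the mean depth over each transcript, from which reads were rebuilt here (coverage times length divided by 100). The libraries are amplified without molecular identifiers, so these are not counts of molecules.

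Differences were tested with limma 3.58.1 in R 4.3.3 (trend, two-sided) on log2(TPM + 1) over the 13128 entries whose mean TPM reached 1, with Benjamini-Hochberg adjustment. That scale understates changes of low entries. Calls needed an adjusted p under 0.1 and, for the whole series, a fold change of 2 or more in either direction. As in the study, 2483 entries that lacked a name or were named as predicted genes, Rik clones, microRNAs, opposite-strand transcripts or pseudogenes were fitted but not called. The steps were tested on simulated data.

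Same-numbered libraries share the batch label, and their deviations from group means correlated at 0.563 across entries. The study states no pairing in its test of differential expression, so the fit without a block is the main one. It did use a paired design for its heatmaps. The fit without a block leaves the difference between replicate numbers in its error, so both fits are given. Nuclear copies were found with BLAST+ 2.17.0, and annotation was from GENCODE M39 (GRCm39). Every mitochondrial entry could be named, and from each nuclear list the genes past the adjusted p without or with the block, the 2 most abundant and the 2 with the largest change. Some genes that the rule would name are not reported here. Ppargc1a and the cell markers outside this rule were named after their values were seen. The members and lists were chosen with earlier results of these data known. The labels do not say whether replicates came from separate animals, so p-values reach no further than these libraries. In limma the variance of each entry is drawn toward that of entries at a similar level. With the block, few libraries remain to estimate an entry's own variance. Those p-values therefore rest largely on the pooled variance and not on the spread of the entry's own 2 pairs.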

Additional observations from a re-analysis of the deposited data

How the results depend on the processing

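The count of entries called by adjusted p and fold was 24. It was 15 when 5 was added to TPM before the log, 15 when entries needed a mean of 5 TPM, 12 when the variance trend was dropped and 1 when no low entry was filtered out. The labels' batch field pairs same-numbered libraries. With the replicate block the count was 37, with 3 members and 1 gene of the mitochondrial lists (Myc) past the adjusted p, each 0 without it. Fits added after seeing the data joined the replicate block with another scaling. Scaling to entries that are not members gave 37, 3 and 1, quantile normalization 37, 2 and 2, voom on rebuilt reads 62, 3 and 2, and scaling to entries that are neither members nor copies 37, 1 and 1. The member kept in all of these was mt-Co2 (adjusted p 0.00864 to 0.0316), and the gene added to Myc was Mrm1. Over all entries, the count past the adjusted p alone was 29 without and 175 with the block, which also added Des, H1f2 and Rnu2-10 in the other lists. Leaving out each library in turn gave 18 to 34 called entries, 0 to 0 members and 0 to 0 list genes.

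The median of the protein-coding entries ranged from -0.23 without BMP6 replicate 1 to -0.082 without BMP6 replicate 2, and the log2 ratio of the mitochondrial share (-0.12) from -0.17 without control replicate 1 to -0.07 without control replicate 2. Both kept their direction under every alternative run. Quantile normalization, with or without the replicate block, turned mt-Rnr2 (0.0026), mt-Co1 (0.0018) and mt-Cytb (0.063) to positive. For such abundant entries its values are set by rank. Leaving out 1 library turned the direction of mt-Rnr2 (-0.15 to 0.053), mt-Nd2 (-0.20 to 0.069), mt-Ta (-0.33 to 0.30), mt-Tn (-0.37 to 0.33), mt-Tc (-0.45 to 0.35), mt-Ty (-0.40 to 0.21), mt-Atp8 (-0.23 to 0.046), mt-Ts2 (-0.059 to 0.35) and mt-Cytb (-0.23 to 0.067). Leaving out 1 library breaks a pair, so these values also hold the difference between replicate numbers. Of the 17 tested tRNAs, 14 changed direction under at least 1 alternative. The count of nuclear copies was 10, and 6 at 99% identity or 17 at 90% identity over 50 bases. The cause of these shifts was not tested. The lowest tRNAs, mt-Tv and mt-Tr, had 12.5 to 20.5 rebuilt reads in each library, which limits the precision of their values, and the depth of identical copies cannot be separated from that of the members.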
